A study of Mus musculus with 12 samples.

Results

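Transcripts of 33 genes of glycolysis and lactate handling were followed in mouse retina kept in culture at a low or a high glucose concentration. The genes were chosen by symbol, as the isoenzymes of the glycolytic chain, the PFKFB enzymes that tune it, the lactate dehydrogenases, the glycerol phosphate shuttle and the monocarboxylate transporters, and each symbol was matched to its Ensembl identifier in a table of 53707 genes. All 33 were found, and 32 of them passed the filter on low counts and were tested among 21061 genes. Retinas came from wild-type C57Bl/6J mice at postnatal day 28 (P28). They were held for 48 hours in Neurobasal-A medium with 5 mM or 25 mM glucose, and the culture supplements (B27, N2, Glutamax and antibiotics) were shared by both groups. Each concentration had 3 biological replicates with 2 technical libraries each, the first technical library in batch 1 and the second in batch 2, 12 libraries in all. Batch number and technical number thus coincide. Batch 1 and batch 2 below are repeat libraries of the same biological replicates, and a batch effect cannot be told apart from a difference between repeat libraries. The sclera and the pigment epithelium were taken off at dissection, so these are cultures of neural retina apart from its supporting epithelium. How many animals stand behind a replicate is not given in the sources used here. Unless stated, tests took the biological replicate as the unit, 3 per group. The edgeR test sets a difference against the spread between replicates and draws on other genes to estimate that spread.

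Glycolysis splits glucose into pyruvate. Hexokinase traps the sugar, phosphofructokinase commits it, and the lower chain from aldolase to pyruvate kinase earns the ATP. Lactate dehydrogenase then turns pyruvate into lactate, which leaves the cell with a proton through the monocarboxylate transporters. The photoreceptors of the retina are known for sending most of their glucose to lactate even when oxygen is plentiful, and several steps are held by isoenzymes that differ in affinity, regulation and cell type, so the choice of isoenzyme is a readout in its own right.

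Libraries held between 17998905 and 36692484 estimated counts at 5 mM and between 14815285 and 23129541 at 25 mM. Values below are CPM, counts scaled to a common library size with TMM factors, from the technical libraries summed per biological replicate (37944826 to 60098862 counts), and fold changes are on the log2 scale, 25 mM over 5 mM. The tissue label was checked against marker lists. The 5 rod markers Gnat1, Pde6b, Nrl, Nr2e3 and Sag had a summed level of 1149 to 1861 CPM at 5 mM and 2410 to 3072 CPM at 25 mM, and 3 of the 5 rose with glucose, against 1.47% of all genes (edgeR quasi-likelihood test, Benjamini-Hochberg FDR under 0.05). The 5 cone markers summed to between 27.3 and 36.4 CPM at 5 mM and between 38.8 and 52.5 CPM at 25 mM, with 1 of the 5 called higher. They did not move together, with 3 higher and 2 lower by point estimate. Opn1sw fell from between 2.56 and 2.94 CPM to between 1.24 and 1.53 CPM (log2 fold change -1.01, FDR 0.0704, edgeR). Pde6h had a log2 fold change of -0.20. The summed level of 4 endothelial markers went the other way, from 609 to 1232 CPM at 5 mM against 288 to 509 CPM at 25 mM, with 0 of 4 called at that FDR, 3 of 4 lower at an unadjusted p under 0.05 (15.5% of all genes) and 3 of 4 lower by DESeq2 (9.54% of all genes). Summed bipolar markers, at 1128 to 1221 CPM against 898 to 1006 CPM, and summed amacrine markers, at 153 to 165 CPM against 70.4 to 113 CPM, were also lower at 25 mM without overlap. By point estimate 3 of 4 bipolar and 2 of 3 amacrine markers were lower. Grm6 (log2 fold change 0.53) and Tfap2a (0.26) were higher, while Trpm1 (-0.04) and Slc6a9 (-0.01) changed little. Gad1 alone held most of the amacrine sum, at 135 to 142 CPM at 5 mM and 55.3 to 84.8 CPM at 25 mM. Sums overlapped for markers of Mueller glia, ganglion cells and microglia. All 4 microglial markers were lower by point estimate, with a median log2 fold change of -0.77. Markers of the pigment epithelium summed to between 1.45 and 3.62 CPM in every replicate, and those of red blood cells to between 0.145 and 1.79 CPM. In bulk tissue, fewer cells of a type and less RNA per cell cannot be told apart, and the part of these shifts in the values below was not tested.

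One of the 32 genes passed an FDR of 0.05 (quasi-likelihood test of edgeR, Benjamini-Hochberg over all genes): Pfkfb2, which was higher at 25 mM. Of all genes tested, 1.47% were called higher and 0.513% lower, so 1 gene of 32 higher and 0 of 32 lower are near the background. At an unadjusted p under 0.05, 3 of the 32 were higher (13.2% of all genes) and 9 were lower (15.5% of all genes), and DESeq2 called 1 higher (7.03% of all genes) and 5 lower (9.54% of all genes). None passed a fold change over 2 together with an FDR under 0.01 in the edgeR test, nor did any gene in the table; DESeq2 passed 1 of the 32 by that rule, against 6.59% of all genes.

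The other genes leaned downward without passing the test. The log2 fold change was negative for 24 of the 32 and positive for 8, with a median of -0.33, while 50.7% of all genes tested were lower and their median was -0.01. The 3 replicates of each concentration did not overlap for 8 genes that were lower (15.8% of all genes) and 5 that were higher (16.0% of all genes). Fold changes over 2 were found for 2 genes that were higher, Pfkfb2 and Slc16a7 (8.1% of all genes), and for 3 that were lower, Pkm, Gpd1 and Slc16a3 (9.27% of all genes). In the plot of all 32 fold changes, the lower chain from Aldoa to Pkm sits to the left of 0.

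**Figure D1:**
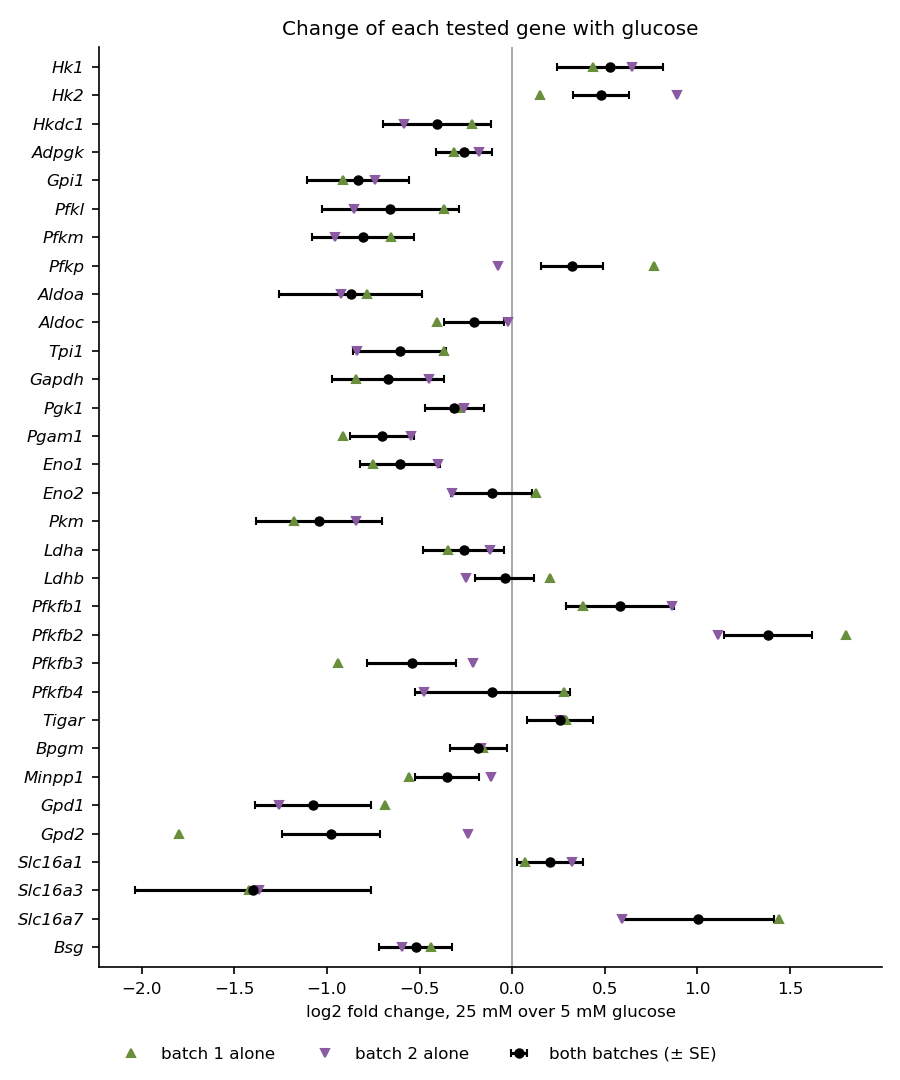
Log2 fold change of each of the 32 tested genes, 25 mM over 5 mM glucose, in pathway order; black points are the fit over 3 biological replicates per concentration with their standard error, and triangles are the same fit in batch 1 or batch 2 alone. Pfkfb2 lies farthest to the right at 1.38, Slc16a3 farthest to the left at -1.40 with the widest error, and batch 1 and batch 2 lie on opposite sides of 0 for 4 genes.

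The PFKFB enzymes make and destroy fructose 2,6-bisphosphate, the strongest activator of phosphofructokinase, and Pfkfb2 encodes the isoenzyme best known from heart muscle. Pfkfb2 (ENSMUSG00000026409, GRCm38 chromosome 1, 130689182 to 130729253, minus strand) was at 62.0, 45.8 and 43.7 CPM in the 3 replicates at 5 mM and at 164, 134 and 96.6 CPM at 25 mM. The lowest replicate at high glucose lay above the highest at low glucose. Its level rose from 50.5 ± 10.0 to 132 ± 33.9 CPM (mean ± SD, n = 3 each), a log2 fold change of 1.38 with a standard error (SE) of 0.24 (FDR 0.0383, edgeR). On the same scale the difference was 1.80 within batch 1 and 1.11 within batch 2. The FDR was 0.125 to 0.174 (edgeR) when 5 mM replicate 2 or 3, or 25 mM replicate 1 or 2, was left out, settings in which 0 genes of the whole table were called.

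Pfkfb3, the inducible isoenzyme with the highest kinase activity of the family, was between 77.5 and 95.1 CPM at 5 mM and between 42.9 and 81.1 CPM at 25 mM, with a log2 fold change of -0.54 (SE 0.24, FDR 0.179, edgeR). The ratio of Pfkfb2 to Pfkfb3 counts was 0.801, 0.496 and 0.459 at 5 mM and 3.83, 2.31 and 1.19 at 25 mM, so Pfkfb3 counts were in excess in every low-glucose replicate and Pfkfb2 counts in every high-glucose one. On coding transcripts only, a count added after seeing the data, the ratio was 0.493, 0.299 and 0.304 at 5 mM and 2.08, 1.29 and 0.778 at 25 mM, so it did not overlap, but coding counts of Pfkfb3 were still in excess in the third high-glucose replicate. Per kilobase of transcript, Pfkfb2 averaged 16.7 CPM and Pfkfb3 20.3 CPM at 5 mM, and 43.5 and 13.9 CPM at 25 mM. Pfkfb1, the liver isoenzyme, stayed between 1.63 and 3.75 CPM, and Pfkfb4 between 4.15 and 11.4 CPM. Tigar, which removes fructose 2,6-bisphosphate, was between 17.2 and 17.9 CPM at 5 mM and between 19.5 and 22.1 CPM at 25 mM (log2 fold change 0.26, FDR 0.361, edgeR).

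The sequence just upstream of the Pfkfb2 start site is shown because this gene passed the test. It is taken from the RefSeq promoter table (GRCm38.p6, chr1:130715822-130716071, minus strand), as the 250 bases before the annotated start that lies nearest to the most abundant Pfkfb2 transcript, 43 bases from it. Capitals mark the single occurrence of CACGTG, an E-box that factors of the basic helix-loop-helix class, MYC among them, can bind.
Pfkfb2 upstream: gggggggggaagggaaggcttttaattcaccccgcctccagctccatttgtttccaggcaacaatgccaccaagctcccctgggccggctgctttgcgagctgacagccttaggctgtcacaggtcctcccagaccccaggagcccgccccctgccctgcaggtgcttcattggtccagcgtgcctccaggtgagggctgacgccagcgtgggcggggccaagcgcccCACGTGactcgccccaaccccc
A window chosen in this way was found for 30 of the 33 genes. The annotated start lay within 250 bases of the start of the most abundant transcript for 24 of them and 587 to 25478 bases from it for the other 6. CACGTG, which reads the same on both strands, occurred in 5 of them (16.7%): Pfkm, Ldha, Pfkfb2, Pfkfb3 and Slc16a1. The shorter ACGTG, which lies within CACGTG and is the core of the hypoxia response element, occurred on either strand in 11 of 30 (36.7%). Over all 32851 windows of the same length, 6.02% held CACGTG and 16.6% held ACGTG. These windows outnumber the 21061 genes tested and were not matched to the 30 in expression, so the shares are not like for like. The 5 genes with CACGTG had log2 fold changes from -0.80 for Pfkm to 1.38 for Pfkfb2, so the match did not go with one direction.

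**Figure D2:**
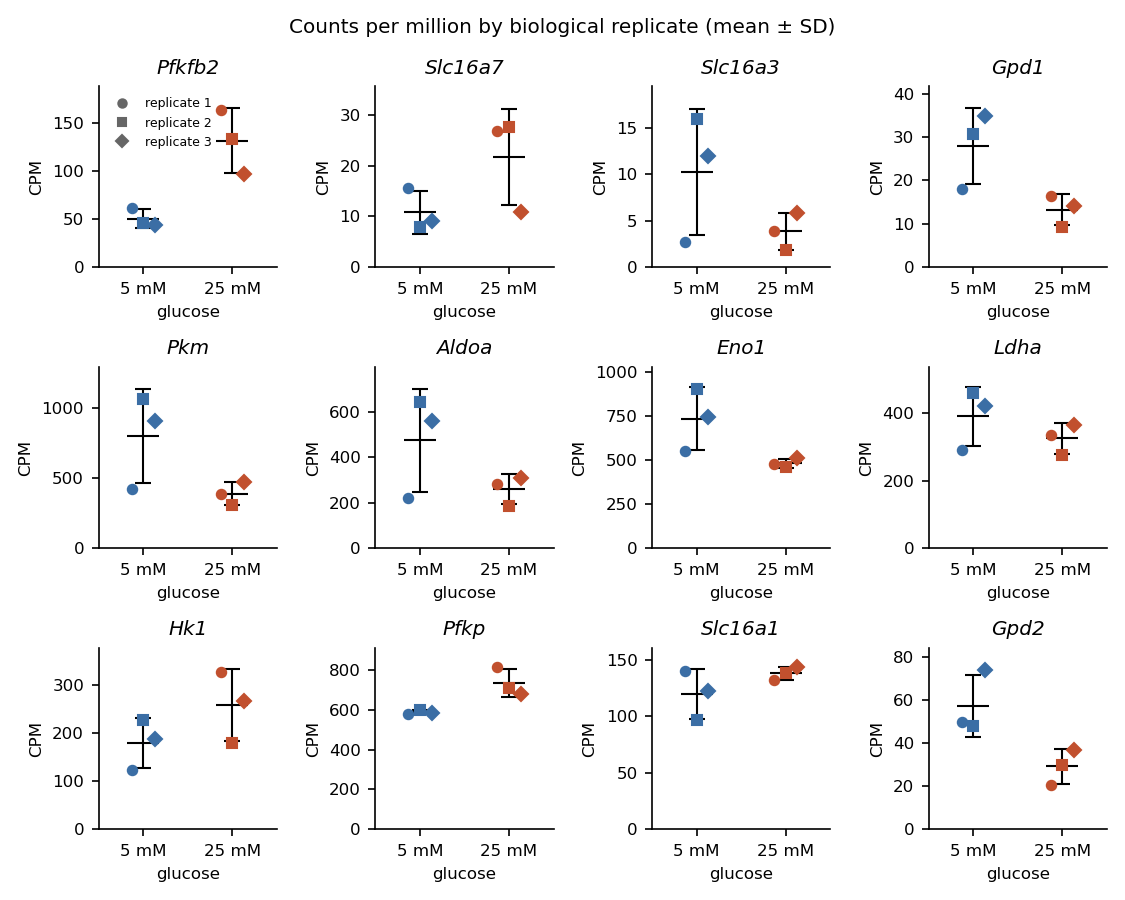
CPM of 12 genes in each biological replicate at 5 mM (blue) and 25 mM (orange) glucose, each panel from 0 with its own scale; symbols mark the replicate number, the long bar is the mean and the error bar the SD of 3 replicates. The concentrations do not overlap for Pfkfb2, Gpd1, Gpd2, Eno1 and Pfkp, while 5 mM replicate 1 (circle) lies at the level of the 25 mM replicates for Pkm, Aldoa and Slc16a3.

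Glucose enters the chain through the hexokinases, and the high-affinity housekeeping form Hk1 was the most abundant of them per kilobase. Hk1 was at 123, 227 and 189 CPM at 5 mM and at 328, 181 and 267 CPM at 25 mM, so the groups overlapped (log2 fold change 0.53, SE 0.29, FDR 0.255, edgeR). Hk2, the regulated mitochondrial form that photoreceptors use, was lower in level but tighter, between 47.4 and 54.1 CPM against 69.0 and 76.4 CPM. Its groups did not overlap, and the log2 fold change of 0.48 (SE 0.15) missed the threshold (FDR 0.0954, edgeR). Its size was uneven between batches, at 0.15 in batch 1 and 0.89 in batch 2. Hkdc1 had a log2 fold change of -0.41, and Adpgk, which uses ADP instead of ATP, one of -0.26. Gpi1, the isomerase that follows, had -0.83 (FDR 0.103, edgeR).

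Phosphofructokinase is a tetramer of liver (Pfkl), muscle (Pfkm) and platelet (Pfkp) subunits. Platelet subunit counts dominated. Pfkp was at 581, 599 and 581 CPM at 5 mM and at 816, 709 and 679 CPM at 25 mM, and per kilobase at 82.8 and 104 CPM, against 16.4 and 9.4 CPM for Pfkm and 10.8 and 6.84 CPM for Pfkl. The Pfkp groups did not overlap, yet its log2 fold change of 0.32 (FDR 0.239, edgeR) stood at 0.76 within batch 1 and at -0.08 within batch 2. Pfkm had -0.80 (FDR 0.11) and Pfkl -0.66 (FDR 0.267, both edgeR).

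Most Pfkp counts did not belong to a coding transcript. A retained-intron transcript of 8681 bases, Pfkp-212, took 74.6% of the estimated transcript counts of the gene. Summed coding transcripts of Pfkp were at 103 ± 8.55 CPM at 5 mM and 94.4 ± 14.0 CPM at 25 mM (mean ± SD, n = 3), overlapping, while its retained-intron transcripts were at 467 ± 35.6 and 629 ± 111 CPM, with no overlap. The ratio of retained-intron to coding counts of Pfkp overlapped between concentrations and was higher at 25 mM by 0.55 on the log2 scale, close to the median of 0.53 over 7046 genes, of which 5938 had a higher ratio at 25 mM. With coding transcripts only, the log2 fold change of Pfkp was 0.04 (FDR 0.889, edgeR).

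From aldolase to pyruvate kinase the chain runs through its most abundant transcripts. Gapdh was the highest of all members per kilobase, at 808 CPM at 5 mM and 507 CPM at 25 mM. Aldoa, the main aldolase, was at 219, 644 and 558 CPM at 5 mM and at 282, 184 and 309 CPM at 25 mM. The low value of the first 5 mM replicate fell inside the range of the 25 mM replicates, and the log2 fold change was -0.87 (SE 0.39, FDR 0.18, edgeR). Eno1, the broadly expressed enolase, was at 549, 906 and 745 CPM against 479, 459.5 and 509 CPM. Here the groups did not overlap (log2 fold change -0.60, FDR 0.121, edgeR). Pgam1, named after its values were seen because it was second to Pfkfb2 in FDR, was between 348 and 406 CPM at 5 mM and between 208 and 269.8 CPM at 25 mM (log2 fold change -0.70, FDR 0.0671, edgeR). Tpi1 had -0.61, Gapdh -0.67 and Pgk1 -0.31. The brain forms were nearer to 0, with -0.21 for Aldoc and -0.11 for Eno2.

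Pyruvate kinase closes the chain, and Pkm yields it in 2 forms by a choice between exons: M1 in resting neurons and muscle, M2 in growing cells and in photoreceptors. Pkm (ENSMUSG00000032294, GRCm38 chromosome 9, 59656368 to 59679375, plus strand) was at 424, 1068 and 906 CPM at 5 mM and at 384, 308 and 472 CPM at 25 mM. The first low-glucose replicate thus lay within the high-glucose range, and the others lay well above it. The mean was 799 ± 335 against 388 ± 82.3 CPM (SD, n = 3), a log2 fold change of -1.04 (SE 0.34, FDR 0.102, edgeR), with -1.18 in batch 1 and -0.84 in batch 2. The alternative exons, shown because they define the M1 and M2 forms, are 167 bases each on chromosome 9 of GRCm38. They lie at chr9:59675029-59675195 for M1 (transcript Pkm-202) and chr9:59675568-59675734 for M2 (transcript Pkm-201). They are identical at 61.7% of positions, and capitals mark the 64 positions that differ when the exons are laid side by side without gaps.
M1 exon: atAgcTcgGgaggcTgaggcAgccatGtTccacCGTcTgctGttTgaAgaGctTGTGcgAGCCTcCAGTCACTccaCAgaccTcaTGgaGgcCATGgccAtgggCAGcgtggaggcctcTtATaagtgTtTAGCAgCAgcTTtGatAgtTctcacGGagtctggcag
M2 exon: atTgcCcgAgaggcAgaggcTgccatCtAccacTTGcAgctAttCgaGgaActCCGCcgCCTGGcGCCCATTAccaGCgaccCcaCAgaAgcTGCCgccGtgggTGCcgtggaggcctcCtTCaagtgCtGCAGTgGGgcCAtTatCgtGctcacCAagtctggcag
Shares were taken from estimated counts of whole transcripts, Pkm-201 for M2 and Pkm-202 for M1, not from reads of the exons alone. M2 took 79.5%, 72.7% and 74.2% of M1 and M2 counts at 5 mM and 71.3%, 80.8% and 77.8% at 25 mM. With Pkm-203 counted as M1, its share ran from 68.2% to 77.7% over all replicates. M2 was the major form in every replicate, and the concentrations overlapped. The share was 75.5% ± 3.61 at 5 mM and 76.6% ± 4.87 at 25 mM (mean ± SD, n = 3), a difference of 1.16 percentage points with a 95% interval from -8.56 to 10.9 (exact permutation test, two-sided, p = 0.9). These shares rest on 7163 to 47671 estimated counts per replicate. The data therefore leave room for a shift of several percentage points either way.

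**Figure D3:**
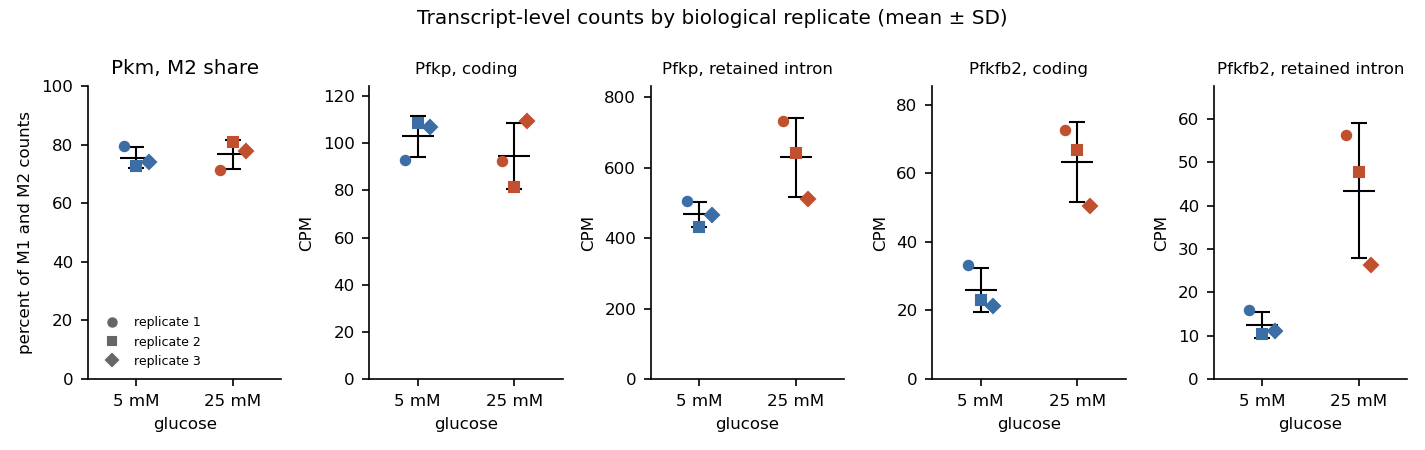
Transcript-level values by biological replicate, with mean and SD of 3 replicates. The first panel is the share of the M2 transcript in Pkm M1 and M2 transcript counts, in percent. The others are the summed coding and retained-intron transcripts of Pfkp and Pfkfb2, in CPM. The M2 share stays between 71.3% and 80.8%, coding Pfkp overlaps between concentrations, and both kinds of Pfkfb2 transcript are higher at 25 mM.

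For Pfkfb2 the coding and the intron-containing transcripts went together. Its coding transcripts were at 33.3, 23.2 and 21.3 CPM at 5 mM and at 72.7, 66.8 and 50.3 CPM at 25 mM, and its retained-intron transcripts averaged 12.5 and 43.5 CPM. Neither kind overlapped between concentrations. In a fit of coding transcripts only, which tested 15517 genes, Pfkfb2 had a log2 fold change of 1.44 and an FDR of 0.062 (edgeR). The ratio of retained-intron to coding counts could be formed for 21 members with at least 60 counts of each kind. It was higher at 25 mM by point estimate for 19 of the 21, and without overlap for 8 of the 21 (38.1%) against 33.6% of 7046 genes, so the members were near the background in this respect. Gpi1 was among them, with retained-intron transcripts at 34.6% of its counts at 5 mM and 49.7% at 25 mM.

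Lactate dehydrogenase comes in a pyruvate-reducing A form and a lactate-oxidising B form. Ldha was at 292, 459 and 422 CPM at 5 mM and at 337, 277 and 365 CPM at 25 mM. The groups overlapped, and the log2 fold change was -0.26 (SE 0.22, FDR 0.442, edgeR). Ldhb held between 40.9 and 50.1 CPM in all 6 replicates (log2 fold change -0.04, FDR 0.886, edgeR). Per kilobase, Ldha was at 249.6 and 208 CPM and Ldhb at 44.1 and 42.9 CPM.

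Among the proton-coupled transporters, Slc16a1 (MCT1), the widely used lactate carrier, had the highest level. It was at 140.3, 96.7 and 122 CPM at 5 mM and at 132, 138 and 143 CPM at 25 mM, with overlap (log2 fold change 0.20, FDR 0.461, edgeR). Slc16a3 (MCT4), the low-affinity exporter of glycolytic cells, was at 2.75, 15.9 and 11.9 CPM at 5 mM and at 3.92, 1.83 and 5.81 CPM at 25 mM. The first low-glucose replicate was as low as the high-glucose ones, and the log2 fold change of -1.40 had a standard error of 0.64 (FDR 0.188, edgeR). Slc16a7 (MCT2), the high-affinity carrier of neurons, was at 15.7, 7.85 and 9.0 CPM against 26.9, 27.6 and 10.8 CPM. The third replicate at 25 mM lay inside the 5 mM range, and the log2 fold change was 1.00 (SE 0.41, FDR 0.156, edgeR). Slc16a8 (MCT3), the carrier of the pigment epithelium, had between 0 and 6 estimated counts per replicate and was not tested. Bsg (basigin) encodes a chaperone that brings several carriers of this family to the membrane. Its level was between 249 and 348 CPM at 5 mM and between 191 and 254 CPM at 25 mM (log2 fold change -0.52, FDR 0.136, edgeR).

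The glycerol phosphate shuttle, which passes electrons from cytosolic NADH to the mitochondrion, was lower at both of its ends by point estimate. Gpd1, the cytosolic enzyme, was at 18.1, 30.8 and 34.8 CPM at 5 mM and at 16.4, 9.28 and 14.0 CPM at 25 mM, without overlap. Its log2 fold change was -1.07 (SE 0.31, FDR 0.0831, edgeR). Gpd2, the mitochondrial enzyme, also did not overlap, between 48.0 and 73.8 CPM against 20.6 and 36.6 CPM, with a log2 fold change of -0.98 (FDR 0.0742, edgeR). The shift of Gpd2 was -1.80 in batch 1 and -0.24 in batch 2. Of the bisphosphoglycerate genes, Bpgm had a log2 fold change of -0.18 and Minpp1 of -0.35.

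Ratios between partner genes within a replicate need no scaling between libraries, and 11 were compared. The concentrations did not overlap for 4 of them. Pfkfb2 to Pfkfb3 differed by 1.95 on the log2 scale (95% interval 0.43 to 3.47). Pfkp to Pfkm differed by 1.08 (0.20 to 1.96), from 19.6, 10.1 and 11.6 at 5 mM to 26.9, 32.6 and 24.5 at 25 mM. Eno2 to Eno1 differed by 0.47 (0.05 to 0.88), and Hkdc1 to Hk1 by -0.90 (-1.53 to -0.26). An exact permutation test of 3 against 3 cannot go below p = 0.1, which these 4 ratios reached, with p = 0.275 after Benjamini-Hochberg adjustment over the 11 permutation tests. On coding transcripts only, 2 of these 4 ratios still had no overlap, Pfkfb2 to Pfkfb3 and Hkdc1 to Hk1. Pfkp to Pfkm was then at 3.15, 1.83 and 2.14 at 5 mM and at 3.06, 3.68 and 3.87 at 25 mM, with overlap. Eno2 to Eno1 overlapped too, at 0.172, 0.132 and 0.133 against 0.222, 0.156 and 0.167. Hk2 to Hk1 no longer overlapped, at 0.185 to 0.235 against 0.256 to 0.296.

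The other 7 ratios of gene counts overlapped between concentrations, with intervals that reach across 0. Ldhb to Ldha differed by 0.20 on the log2 scale (95% interval -0.62 to 1.02), Hk2 to Hk1 by -0.05 (-1.11 to 1.02) and Slc16a3 to Slc16a1 by -1.43 (-4.31 to 1.45). In batch 2 alone 1 of the 11 ratios had no overlap, and 5 had none in batch 1 alone.

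**Figure D4:**
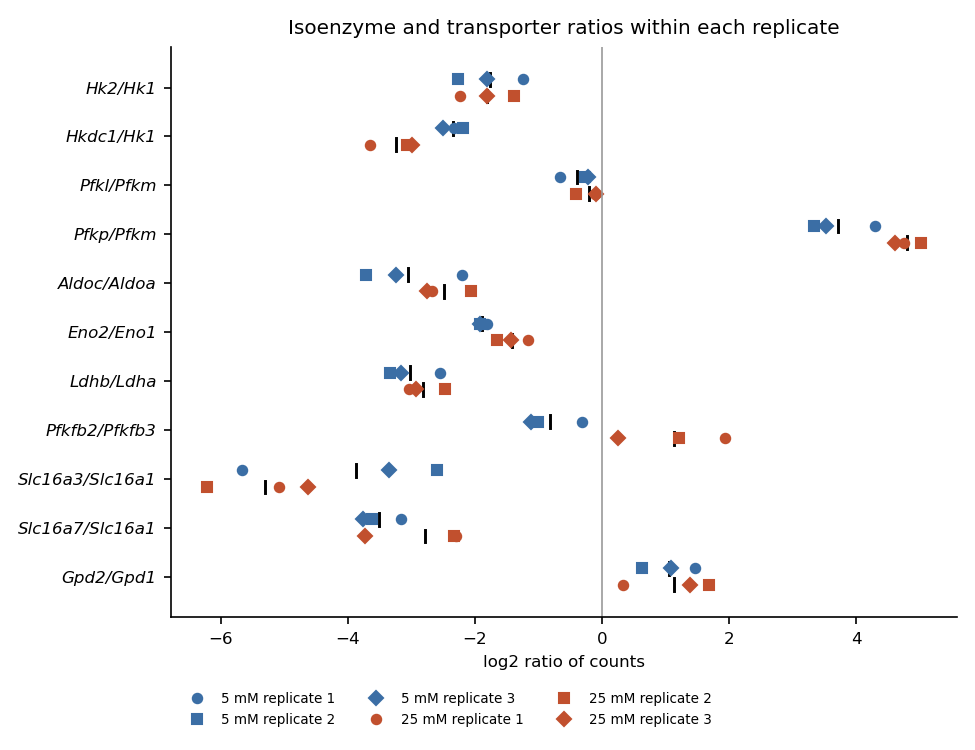
Log2 ratio of the gene counts of partner genes in each biological replicate at 5 mM (blue) and 25 mM (orange) glucose, with the mean as a black bar. Blue and orange symbols separate for Hkdc1/Hk1, Pfkp/Pfkm, Eno2/Eno1 and Pfkfb2/Pfkfb3, and Pfkfb2/Pfkfb3 crosses 0, from a mean of -0.82 to 1.13.

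One replicate carried much of the spread. The first replicate at 5 mM was the lowest of its group for 22 of the 32 tested genes and lay within the range of the 25 mM replicates for 17. No share over all genes was computed for these 2 counts, so they are not read as particular to these genes. Leaving this replicate out raised the share of all genes called from 1.98% to 26.6% (edgeR, FDR under 0.05). Members took 0.481% of all counts in that replicate, 0.827% and 0.741% in the other 5 mM replicates, and 0.445% to 0.595% at 25 mM. The same replicate had the largest total count. Within the low-glucose group it had the lowest summed rod and endothelial markers, at 1149 and 609 CPM, and was also lowest for the cone, Mueller glia, microglia, pigment epithelium and red blood cell lists. It had the highest summed bipolar and ganglion cell markers, at 1221 and 225 CPM. Without it, 16 of the 32 genes passed an FDR of 0.05 (edgeR), 13 of them lower (14.9% of all genes) and 3 higher (11.7% of all genes). The 13 were Gpi1, Pfkl, Pfkm, Aldoa, Tpi1, Gapdh, Pgam1, Eno1, Pkm, Gpd1, Gpd2, Slc16a3 and Bsg, and the 3 were Hk2, Pfkfb2 and Slc16a7. Pkm then had a log2 fold change of -1.35 (FDR 0.011) and Aldoa of -1.22 (FDR 0.014, both edgeR). The value without that replicate rests on 2 low-glucose samples, and the call on the lower chain thus depends on whether it is kept.

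**Figure D5:**
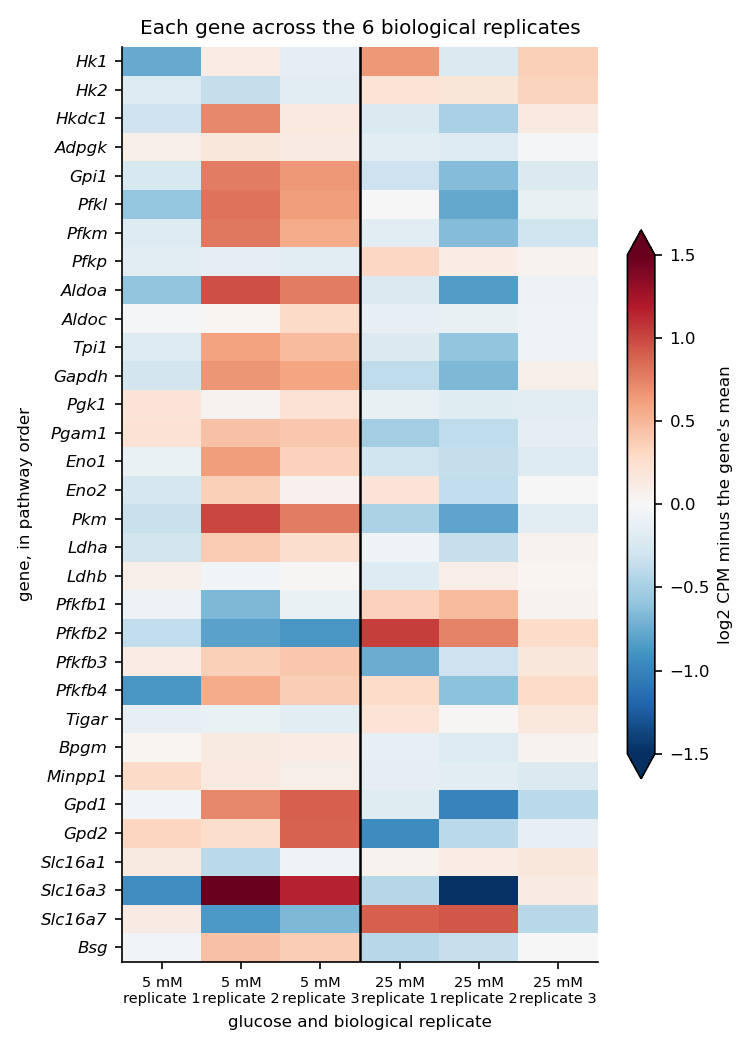
Each tested gene in the 6 biological replicates, as log2 CPM minus the mean of the gene over all 6, in pathway order; red is above and blue below the mean. Replicates 2 and 3 at 5 mM are red through the lower chain, with 24 genes above their mean in each, while replicate 1 at 5 mM has 10 above the mean and resembles the 25 mM columns.

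The sizes also changed under a correction for base composition and length, a step added after seeing the data. It used the GC content and length of each gene, averaged over its transcripts by their counts. The median of the 32 genes was then -0.09 while that of all genes was 0.06. Whether the part taken out was technical was not tested. The log2 fold change became -0.51 for Pkm, -0.34 for Aldoa, -0.11 for Eno1 and -0.28 for Gapdh, and 20 of the 24 lower genes came closer to 0. Pfkfb2 stayed at 1.33 and Hk1 was at 0.97. This fit called 6 of the 32 (Hk1, Hk2 and Pfkfb2 higher, Pgam1, Pkm and Gpd2 lower), against 14.1% of all genes (edgeR, FDR under 0.05).

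Other genes of the pathway were read as a group of 38, of which 31 could be tested. By point estimate 5 were higher and 26 lower at 25 mM (50.7% of all genes were lower), with a median log2 fold change of -0.34. None passed an FDR of 0.05 in the edgeR test. At an unadjusted p under 0.05, 2 were higher (13.2% of all genes) and 11 lower (15.5%), and DESeq2 called 2 higher (7.03%) and 8 lower (9.54%). The PDK kinases hold pyruvate back from the mitochondrion. The plan gave this list by counts only, so the genes named here were picked outside it, and Pdk4 had the lowest FDR of the list. Pdk4 was between 12.2 and 13.9 CPM at 5 mM and between 1.79 and 5.43 CPM at 25 mM (log2 fold change -1.84, FDR 0.054, edgeR). Pdk1 (37.5 to 49.8 CPM) and Pdk3 (47.0 to 72.9 CPM) were more abundant. Their log2 fold changes were -0.02 (FDR 0.953) and 0.07 (FDR 0.842), and that of Pdk2 was -0.65 (FDR 0.239, all edgeR). Hif1a, the regulator of many of these genes, was at 1864, 1080 and 1170 CPM against 1369, 1345 and 1174 CPM, with overlap (log2 fold change -0.08, FDR 0.851, edgeR). Among the genes higher by point estimate, Eno3 had a log2 fold change of 1.08 (FDR 0.0745) and Slc16a6 of 0.76 (FDR 0.0732, both edgeR).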

How the data were processed

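RNA was extracted with TRIzol, made into libraries with a strand-keeping SMARTer total RNA kit (Takara) and sequenced from both ends on an Illumina NextSeq. The authors deposited estimated counts per gene and per transcript, which are not whole numbers and not normalized; the build in the labels is GRCm38, and the quantifier and its strand setting are not given in the sources used here. Symbols, exons and lengths came from GENCODE M21 on GRCm38, which named 90.8% of genes. Counts of technical replicates were summed and then rounded, because the test planned for them takes whole counts. The fit used edgeR 4.0.16 with TMM factors and the quasi-likelihood test (legacy method), without a replicate block, and Benjamini-Hochberg adjustment, and was tested on simulated data. All columns were mapped to samples. Members and lists were chosen with earlier results of these data known. Values per replicate are given for genes with an FDR under 0.05, with a fold change over 2, or with the highest level per kilobase among isoenzymes of a step. Ratios used a pseudocount of 0.5 and exact permutation tests (scipy 1.17.1). Alternatives were other scalings, filters, tools, batches and left-out libraries; the correction for GC content and length, the coding-transcript sums and ratios and the retained-intron ratios were added after seeing the data. Overlapping genes were annotated for 16 of the 33 members, 14 on the opposite strand and 4 on the same. The 4 were Pfkm, Pkm, Minpp1 and Pfkfb2, the gene called above. Pfkfb2 overlaps Gm29427 on its own strand and Yod1 on the opposite one. Gapdh, Eno1, Ldha and Pgam1 have near-identical copies. Counts of genes with an overlap or a copy are uncertain to that extent. A second Aldoa identifier held 0.987 to 17.1 counts per library and was kept apart. The transcript sums reached 7.35% of the gene counts for Tpi1 and 49.4% for Ldhb, and lay within 10% of them for the other 30 tested genes. Each replicate held 37944826 to 60098862 counts; intervals cover the spread between replicates. One marker was left out of the lists and is not reported here.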

Additional observations from a re-analysis of the deposited data

How the results depend on the processing

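The count of genes with an FDR under 0.05, 1 of 32 in the test reported above (edgeR), was also 1 with size factors of DESeq2, with library totals, in limma-voom, with the newer quasi-likelihood method of edgeR, with a minimum mean of 1 CPM and with transcript counts summed per gene. It was 6 by DESeq2 (16.6% of all genes), 5 in batch 1 alone (17.3%) and 0 in batch 2 alone (0 of 18811 genes). In 12 libraries with a batch term it was 6 (15.6%), but that fit took the 2 technical libraries of a replicate as separate samples. The count was 5 without a filter (5.63%) and 2 without the second library of 5 mM replicate 1 (8.27%). It was 0 without the first library of 25 mM replicate 2 and 0 with coding transcripts only (0.348%). With the correction for GC content and length it was 6 (14.1%). The count ran from 0 to 16 when 1 replicate was left out; it was 0 without 5 mM replicate 2 or 3 or 25 mM replicate 1 or 2, settings with fewer samples, and the cause of the other changes was not tested. The median log2 fold change ran from -0.44 to -0.27 with 1 replicate left out and was -0.093 with the correction. Replicate numbers were not treated as pairs, because the labels do not say that they pair the samples. The correlations of same-numbered deviations were -0.01, -0.45 and 0.28. With the replicate block 2 of 32 genes were called (4.7% of all genes), Pfkfb2 and Gpd2. With the block and the correction together 6 were called (16.0% of all genes), and the median was -0.088. Signs turned as follows. With the correction, alone or with the block, Hkdc1 was at 0.021 and 0.028, Aldoc at 0.077 and 0.084, Eno2 at 0.23 and 0.22, Ldhb at 0.18 and 0.19, and Pfkfb4 at 0.31 and 0.31. Batch 2 alone gave -0.077 for Pfkp, and batch 1 alone 0.13 for Eno2, 0.21 for Ldhb and 0.28 for Pfkfb4. Library totals gave 0.015 for Ldhb, a minimum of 1 CPM 0.014, and coding transcripts 0.13 for Ldhb and 0.046 for Bpgm. With 1 replicate left out the range was -0.25 to 0.042 for Eno2, -0.089 to 0.050 for Ldhb and -0.44 to 0.15 for Pfkfb4. Of the ratios, Hk2 to Hk1 was at 0.38 in batch 2, 0.092 without the first library of 25 mM replicate 2, 0.38 with summed transcripts, 0.44 with coding transcripts and -0.29 to 0.22 with 1 replicate left out; Gpd2 to Gpd1 at -1.27 in batch 1, -0.11 without the second library of 5 mM replicate 1 and -0.21 to 0.48 with 1 replicate left out; Ldhb to Ldha at -0.14 in batch 2; and Pfkl to Pfkm at -0.10 with summed and -0.21 with coding transcripts. The number of ratios without overlap was 3 with coding transcripts, 1 in batch 2 and 4 to 7 with 1 replicate left out, 7 without 5 mM replicate 1. The difference in M2 share was -0.526 percentage points without the second library of 5 mM replicate 1 and -0.934 to 3.83 with 1 replicate left out. In all, 25 of the 32 genes kept their direction under each of 23 alternatives. Depth limits Slc16a8, Pfkfb1 and Slc16a3 most, whose counts per replicate began at 0, 72 and 67.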
